A study of Homo sapiens with 6 samples.

Results

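The ionotropic glutamate receptor subunits of the AMPA and NMDA classes were followed in D283 cells, an established line from a human medulloblastoma. The 10 genes were taken by symbol from the deposited count table, which holds 50883 symbols, and all 10 were present: GRIA1, GRIA2, GRIA3 and GRIA4 for AMPA receptors, and GRIN1, GRIN2A, GRIN2B, GRIN2C, GRIN2D and GRIN3A for NMDA receptors. Both groups of cultures were D283 cells transduced with a lentivirus that also expresses GFP. In the control group the virus carried a non-targeting guide RNA, and in the OTX2 knockout group a guide RNA against OTX2, a homeobox transcription factor. Each group had 3 infections, the cells were collected after 7 days in culture, and total RNA was sequenced. All replicates come from the same line, so the p-values speak of variation among infections and not among tumours. The number of guides and the share of edited cells were not given in the labels.

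AMPA and NMDA receptors are tetrameric cation channels opened by glutamate. AMPA receptors, built from GRIA subunits, carry most fast excitatory transmission, and an edited GRIA2 subunit makes them nearly impermeable to calcium. NMDA receptors need GRIN1, which binds the co-agonist glycine or D-serine, together with GRIN2 subunits that bind glutamate, and they admit calcium once depolarisation relieves a magnesium block. In the cerebellum, granule neurons and unipolar brush cells receive glutamatergic input through both classes, and GRIN2B gives way to GRIN2A and GRIN2C as granule neurons mature.

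The sequence before 1 of the RefSeq starts of GRIA2 is shown because GRIA2 had the largest change among the members tested. A further reason was that, of the 7 members searched, only GRIA2 had a window with both parts of the REST element. REST is the repressor of neuronal genes that binds this element. RefSeq promoter windows on GRCh38.p14 matched 7 of the 10 members with 14 windows, 3 of them for GRIA2. The 250 bases before each start were searched on both strands. GRIA3, GRIN1 and GRIN2C had no window and were not searched. The window below is at chr4:157220369-157220618 on the plus strand and contains 0 bases of GRIA2 exons in GENCODE release 29. It lies inside the annotated gene, 16187 bases after its first base. Of 15 annotated GRIA2 transcripts 3 start before the window and 12 after it, 7 of these within 250 bases of its end. Capitals mark the matches to GGACAGC and CAGCACC, the right and left parts of the REST element, on either strand.

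GRIA2 window: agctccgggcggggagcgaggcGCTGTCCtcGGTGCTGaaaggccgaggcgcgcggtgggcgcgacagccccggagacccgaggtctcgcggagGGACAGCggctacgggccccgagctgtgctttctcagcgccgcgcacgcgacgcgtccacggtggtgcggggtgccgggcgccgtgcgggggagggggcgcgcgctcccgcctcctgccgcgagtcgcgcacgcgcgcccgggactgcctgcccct

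In that window the parts begin 228 and 219 bases before the start, on the minus strand and separated by 2 bases, and GGACAGC recurs 156 bases before the start. CAGCACC occurred in 6.16% and GGACAGC in 4.76% of all 35116 windows. Both in the order CAGCACCNNGGACAGC, a search chosen after the single matches were seen, occurred in 13 windows (0.037%). Among the members, GRIN2B also had CAGCACC, 77 bases before 1 of its starts. TAATCC, the core recognised by OTX2 and CRX, was in 0 of the 14 member windows and 5.62% of all windows. CAGATG, an E-box used by neurogenic bHLH factors, was in 0 of the 14 and 12.2% of all windows. A match is a description of the letters and not of a bound site.

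Total counts ranged from 54540645 to 62166870 per library, and 3 counts, taken as the limit of detection, corresponded to 0.0471 to 0.0563 CPM (CPM, reads per 1e6 on library sizes scaled by TMM, a trimmed mean of log ratios). OTX2 RNA was 1002, 979 and 909 CPM in the controls and 765, 824 and 887 CPM in the knockouts, a log2 fold change of -0.22 with an SE of 0.06, at an edgeR adjusted p of 0.00646. RNA level is a weak check of a knockout, since edited transcripts may persist. Control replicate 1 had the highest mitochondrial share, 0.764% of counts against 0.440% to 0.601% in the others. Of 18420 genes tested, 39.7% passed an adjusted p of 0.05, with 21.2% higher and 18.5% lower in the knockout group. Rises were 53.4% of the calls with TMM and 71.9% with library totals alone, a scaling that moved the median log2 fold change of all genes from 0.01 to 0.08. Markers of Group 3 medulloblastoma listed to check the label were present, with MYC, IMPG2 and CRX among the 9 of 10 that were tested, and all 9 fell in the knockout group.

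AMPA receptor subunit RNA was scarce in control D283 cells and higher in the knockout group. GRIA2 rose 5.36-fold, GRIA4 3-fold and GRIA1 1.92-fold, while GRIA3 was at the limit of detection. In bulk RNA, more cells with a transcript and more transcript per cell cannot be told apart.

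GRIA2, which sets the calcium permeability of AMPA receptors, had 29, 12 and 19 counts in control libraries against 115, 129 and 121 in knockout libraries. On the CPM scale these are 0.524, 0.203 and 0.356 against 1.81, 2.09 and 1.91. Every knockout library was above every control library. The mean level went from 0.361 ± 0.16 to 1.93 ± 0.142 CPM (SD over 3 libraries a group), which is 5.36-fold higher, and the log2 fold change was 2.42 with an SE of 0.23, at an edgeR adjusted p of 7.87e-07. GRIA2 spans chr4:157204182-157366075 on the plus strand of GRCh38 and is annotated as protein-coding in GENCODE release 29.

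GRIA4, a fast-gating subunit prominent in the cerebellum and auditory brainstem, had 3, 7 and 6 counts in the controls against 22, 13 and 19 in the knockouts. The corresponding levels were 0.0542, 0.119 and 0.113 CPM against 0.345, 0.210 and 0.300 CPM, and the groups did not overlap. The log2 fold change was 1.56 with an SE of 0.39, at an edgeR adjusted p of 0.00532. GRIA4 passed the filter on low counts only through the knockout libraries, with 0 control libraries over it, so a difference was built into its selection.

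GRIA1, a subunit known for activity-dependent insertion at synapses, had 15, 12 and 20 counts in the controls against 36, 24 and 43 in the knockouts. Its level was 0.271, 0.203 and 0.375 CPM in the controls against 0.565, 0.388 and 0.679 CPM in the knockouts. Knockout replicate 2 lay just above control replicate 3, so the groups did not overlap by a narrow margin. The log2 fold change was 0.95 with an SE of 0.30, at an edgeR adjusted p of 0.0198. The call was lost with DESeq2 (adjusted p = 0.0752) and without control replicate 2 (0.0972), knockout replicate 1 (0.0581) or knockout replicate 3 (0.0900). GRIA3, the X-linked member of the class, had 0, 0 and 0 counts in the controls against 2, 0 and 0 in the knockouts, which is within the limit of detection in every library, and no fold is given.

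Among the NMDA receptor subunits, GRIN2A was the most abundant and fell 1.52-fold in the knockout group. It was the only 1 of 4 tested NMDA members that passed the test. GRIN2B, GRIN2C and GRIN2D overlapped between the groups, and GRIN1 and GRIN3A were too sparse to be tested.

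GRIN2A, the GRIN2 subunit typical of mature synapses, had 361, 338 and 341 counts in the controls against 271, 232 and 269 in the knockouts. Its level was 6.52, 5.73 and 6.40 CPM in the controls against 4.26, 3.75 and 4.25 CPM in the knockouts. All knockout libraries were below all control libraries. The mean went from 6.21 ± 0.427 to 4.09 ± 0.289 CPM (SD over 3 libraries a group), 1.52-fold lower, and the log2 fold change was -0.60 with an SE of 0.09, at an edgeR adjusted p of 0.000110. GRIN2A lies at chr16:9753404-10182754 on the minus strand.

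GRIN2B, the GRIN2 subunit of early development, was at 0.812, 0.576 and 0.788 CPM in the controls and 0.832, 0.712 and 0.774 CPM in the knockouts. The groups overlapped, and edgeR gave an adjusted p of 0.739. The ratio of summed counts per depth, knockout to control, was 1.07, with an exact 95% counting interval of 0.837 to 1.38. Ratios inside that interval are compatible with the summed counts, so a change of that size is not excluded. GRIN2D, a slowly deactivating subunit of early development and interneurons, was at 0.831, 0.491 and 0.957 CPM against 0.801, 0.647 and 0.648 CPM. Its ratio was 0.931 (interval 0.723 to 1.2) and its edgeR adjusted p 0.756, with control replicate 2 the lowest of the 6 libraries.

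GRIN2C, the subunit characteristic of mature cerebellar granule neurons, was at 0.704, 0.796 and 0.882 CPM in the controls and 1.26, 0.922 and 0.790 CPM in the knockouts. Knockout replicate 1 was the highest library, and knockout replicate 3 lay inside the control range. The ratio was 1.25 (interval 0.995 to 1.57), and edgeR gave an adjusted p of 0.243. These intervals cover counting error only, since without molecular identifiers several reads can stem from 1 molecule.

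GRIN1, the subunit that every NMDA receptor requires, had 2, 4 and 3 counts in the controls against 9, 10 and 10 in the knockouts. The knockout libraries were all higher, but the gene did not pass the filter on low counts. Summed over libraries it had 9 against 29 counts, a ratio per depth of 2.86 with a counting interval of 1.32 to 6.87. Fitted without a filter, its edgeR adjusted p was 0.0558. GRIN3A, a glycine-binding subunit that lowers calcium permeability, had 0, 0 and 1 counts in the controls against 3, 6 and 3 in the knockouts. Its ratio was 10.7 with an interval of 1.58 to 456, and edgeR without a filter gave an adjusted p of 0.0573. Only knockout replicate 2 was above 3 counts, the limit of detection, so the size of this ratio is not reliable.

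**Figure D1:**
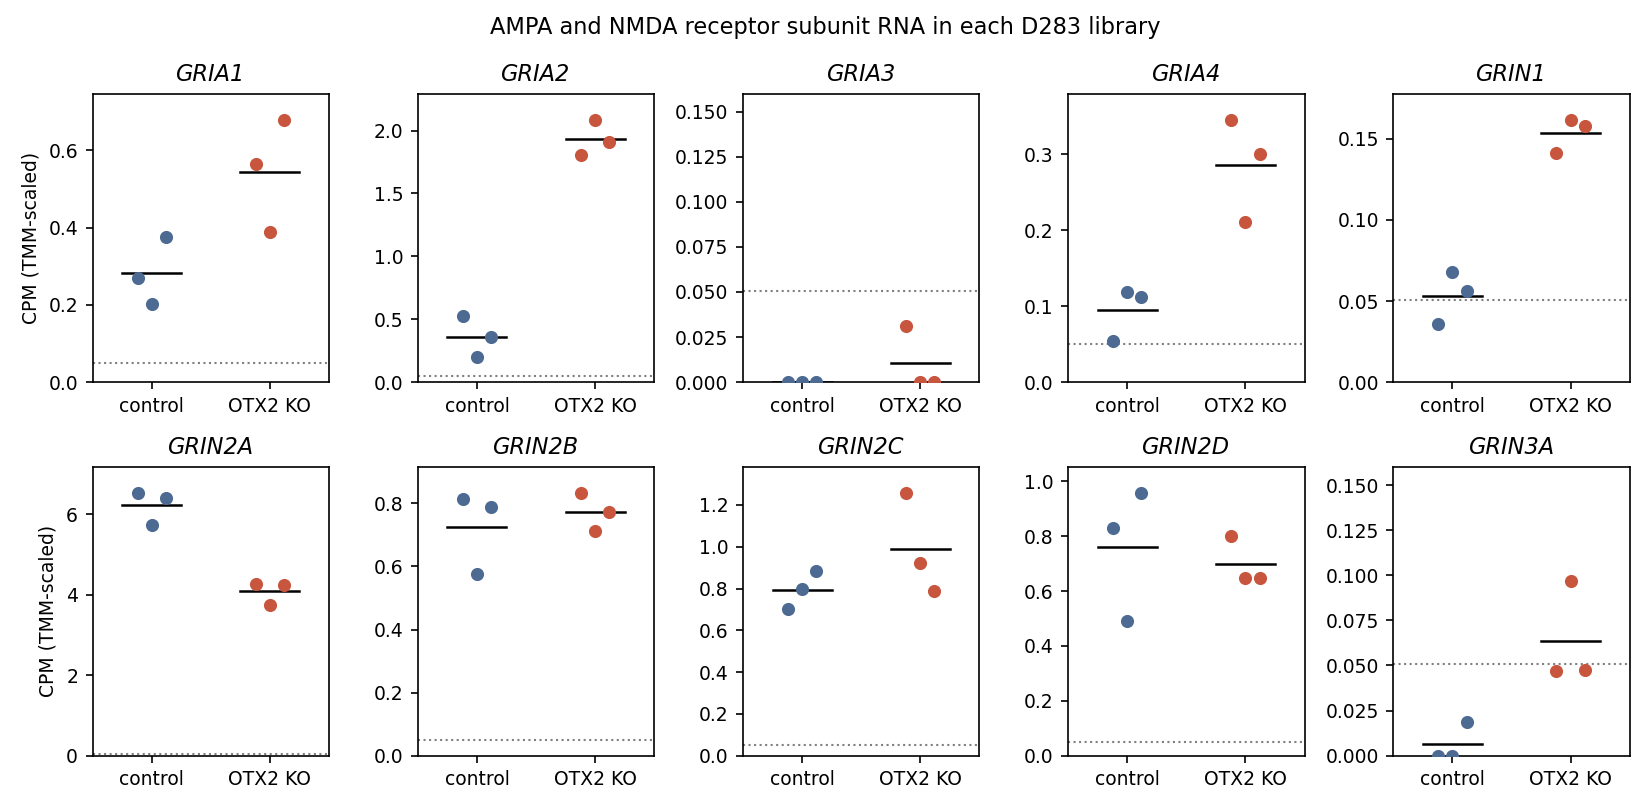
TMM-scaled CPM (vertical axes, each from 0 with its own range) of the 10 members in the 3 control and 3 OTX2 knockout (KO) libraries. Points are libraries, bars are group means and the dotted line is the mean level of 3 counts. GRIA2 separates the groups most, from at most 0.524 CPM in control to at least 1.81 CPM in knockout, and GRIN2A is the member with the knockout points below the control points.

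In all, 7 of the 10 members were tested, 3 rose and 1 fell, beside 21.2% of all tested genes higher and 18.5% lower. Among those 7 the groups were fully separated in CPM for 4, of which 3 were higher and 1 lower, beside 49.2% of all tested genes, 26.2% higher and 23.0% lower. GRIA4 is among the 3 in both counts although it was selected through the knockout libraries, so the counts are descriptions. The median log2 fold change was -0.01 over the 4 NMDA members tested, against 0.01 over all tested genes. Without control replicate 1, the library with the highest mitochondrial share, 3 members rose and 1 fell as well. Under the other scalings the log2 fold change was 2.42 to 2.50 for GRIA2, 1.55 to 1.64 for GRIA4, 0.94 to 1.03 for GRIA1 and -0.61 to -0.52 for GRIN2A.

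**Figure D2:**
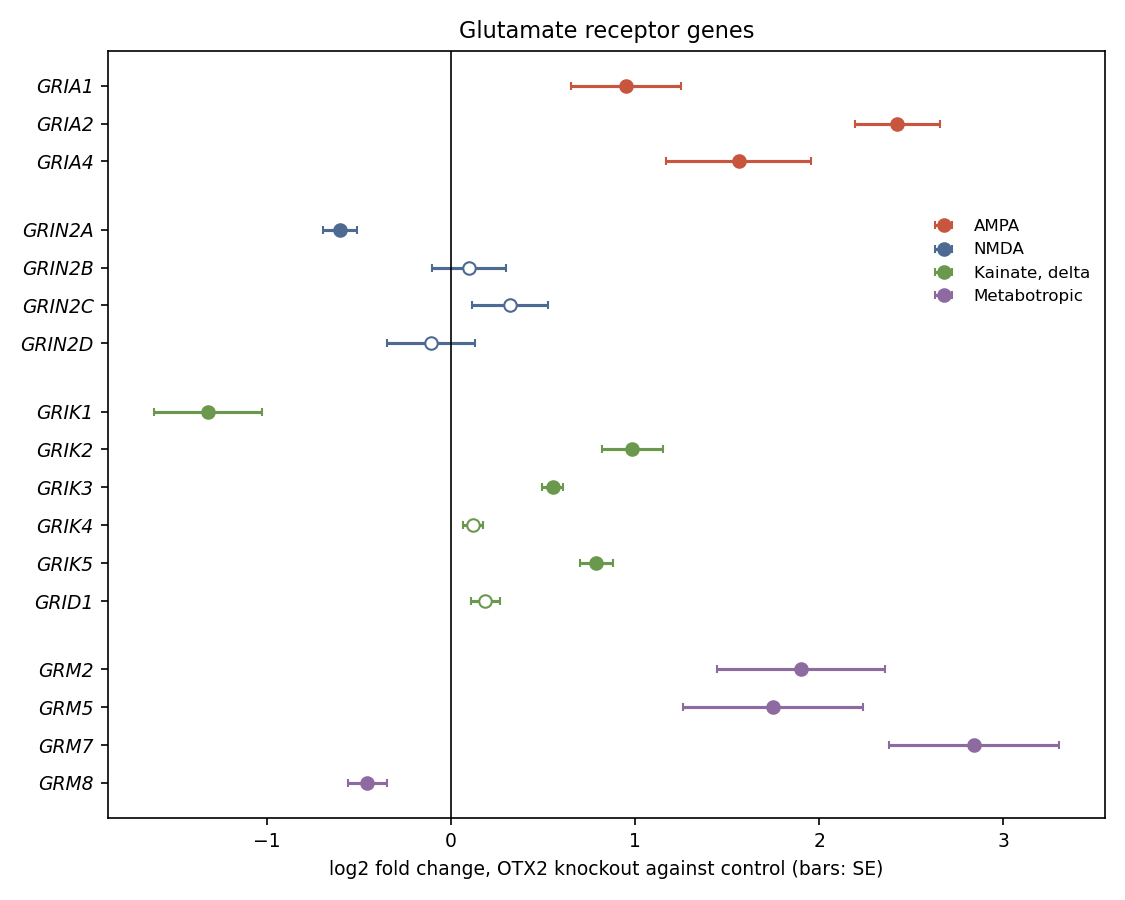
Log2 fold change, OTX2 knockout against control, with its SE (horizontal bars) for tested glutamate receptor genes, coloured by class. Filled points have an edgeR adjusted p under 0.05, and the 3 AMPA points lie to the right of 0 while GRIN2A, GRIK1 and GRM8 lie to the left with filled points.

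Levels of different genes were compared as CPM per kb of exon, using the union of GENCODE exons. In the controls GRIN2A was the highest member at 0.372 ± 0.0255 CPM per kb (SD, n = 3), followed by GRIN2D at 0.149 and GRIN2C at 0.0926, whose libraries overlapped. GRIA2 at 0.0404 and GRIA1 at 0.0371 came next and overlapped each other, then GRIN2B at 0.0234. The place of GRIN2B depends on its exon union of 30.9 kb, the longest of the members. Before division by length its control mean of 0.725 CPM was above GRIA2 at 0.361 and GRIA1 at 0.283. GRIA4 and GRIN1 were lower again, at 0.00943 and 0.00793 CPM per kb, and overlapped. GRIN1 was below all 4 GRIN2 subunits in every control library on the per-length scale.

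In the knockouts GRIA2 moved up to 0.216 ± 0.0158 CPM per kb and overlapped GRIN2A at 0.245 ± 0.0173 (SD, n = 3). GRIN2D at 0.137 and GRIN2C at 0.115 overlapped each other, and GRIA1 followed at 0.0713. GRIA4 at 0.0283, GRIN2B at 0.0250 and GRIN1 at 0.0228 CPM per kb had overlapping neighbours in that order. GRIN3A and GRIA3 were the lowest in both groups.

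The make-up of each class followed from these levels. GRIA2 was 58.9%, 37.2% and 39.8% of the summed AMPA level per length in the controls, and 64.1%, 76.5% and 64.3% in the knockouts. The knockout shares were all higher, 68.3 ± 7.10% against 45.3 ± 11.9% (SD, 3 libraries each). The share of GRIA1 went the other way, from 42.8 ± 6.72% to 22.3 ± 5.15%, although its own level rose.

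Within the NMDA class GRIN2A made up 58.5%, 61.1% and 54.0% of the summed level in the controls and 41.6%, 43.4% and 48.2% in the knockouts. GRIN1 was 1.26 ± 0.5% of the class in control and 4.17 ± 0.649% in knockout (SD, 3 libraries each). The summed AMPA level per length was 0.0869 ± 0.0223 CPM per kb in control and 0.318 ± 0.0139 in knockout, whereas the summed NMDA level was 0.646 ± 0.0767 and 0.553 ± 0.0517. AMPA subunits accordingly made up 11.7 ± 1.67% of both classes together in control and 36.6 ± 2.37% in knockout. Each of these shares, and the AMPA sum, had an exact two-sided permutation p of 0.1, the smallest that 3 against 3 libraries allow, and a Benjamini-Hochberg value of 0.144 over 13 such comparisons. The NMDA sum had an exact p of 0.2.

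**Figure D3:**
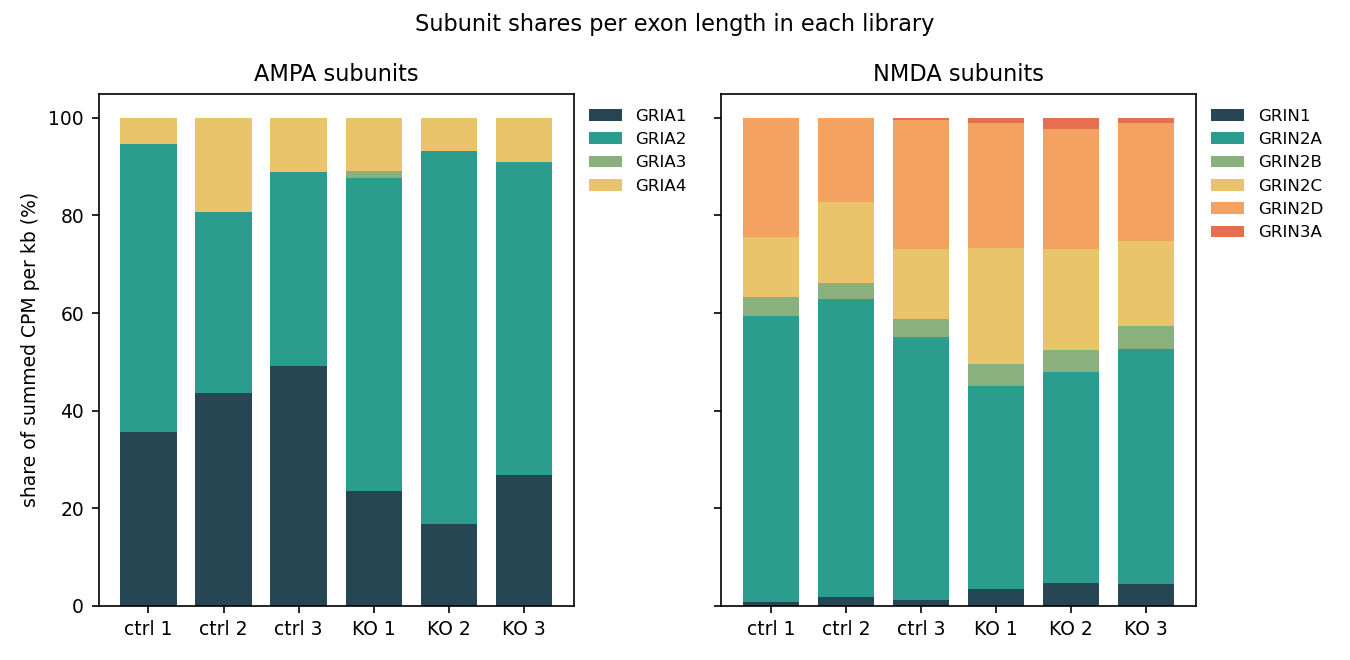
Share of each subunit (vertical axis, percent of the summed CPM per kb) in the AMPA class, left, and the NMDA class, right, in each control (ctrl) and knockout (KO) library. The GRIA2 band is 37.2% to 58.9% in control and 64.1% to 76.5% in knockout, and the GRIN2A band is 54.0% to 61.1% and 41.6% to 48.2%.

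Several other glutamate receptor genes were more abundant per length than any member. Among them were the kainate receptor subunits GRIK4, at 2.87 CPM per kb in control, and GRIK3, at 1.6. Of 7 tested kainate and delta receptor genes 3 rose and 2 fell, and the median log2 fold change was 0.19. This count and those of the lists below are descriptions, to be set beside 21.2% of all tested genes higher and 18.5% lower. GRIK3, GRIK5 and GRIK2 rose 1.47-fold, 1.73-fold and 1.98-fold. GRIK1 fell, with exons that overlap those of the abundant BACH1, so its count is uncertain. GRIK4 and GRID1 had log2 fold changes of 0.12 and 0.19 and did not pass, but both passed with library totals alone (adjusted p = 0.0125 and 0.0175), which gave 5 rises in the class.

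GRIN3B, the remaining NMDA subunit gene, summed to 24 counts over the controls and 25 over the knockouts and was not tested. Its exons overlap TMEM259. Of 8 metabotropic receptor genes 5 were tested, and 4 rose and 1 fell. Of these 5, GRM5 and GRM7 had 0 control libraries over the filter on low counts and GRM2 had 1, so a rise was built into their selection. GRM6, chosen with its values in view, had 32 counts summed over the controls and 9 over the knockouts and was not tested. The presynaptic receptors GRM7 and GRM2 rose from 6 to 51 and from 14 to 60 summed counts. GRM8 fell 1.37-fold, and 2 genes of the class fell when control replicate 2 or a knockout replicate was left out.

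**Figure D4:**
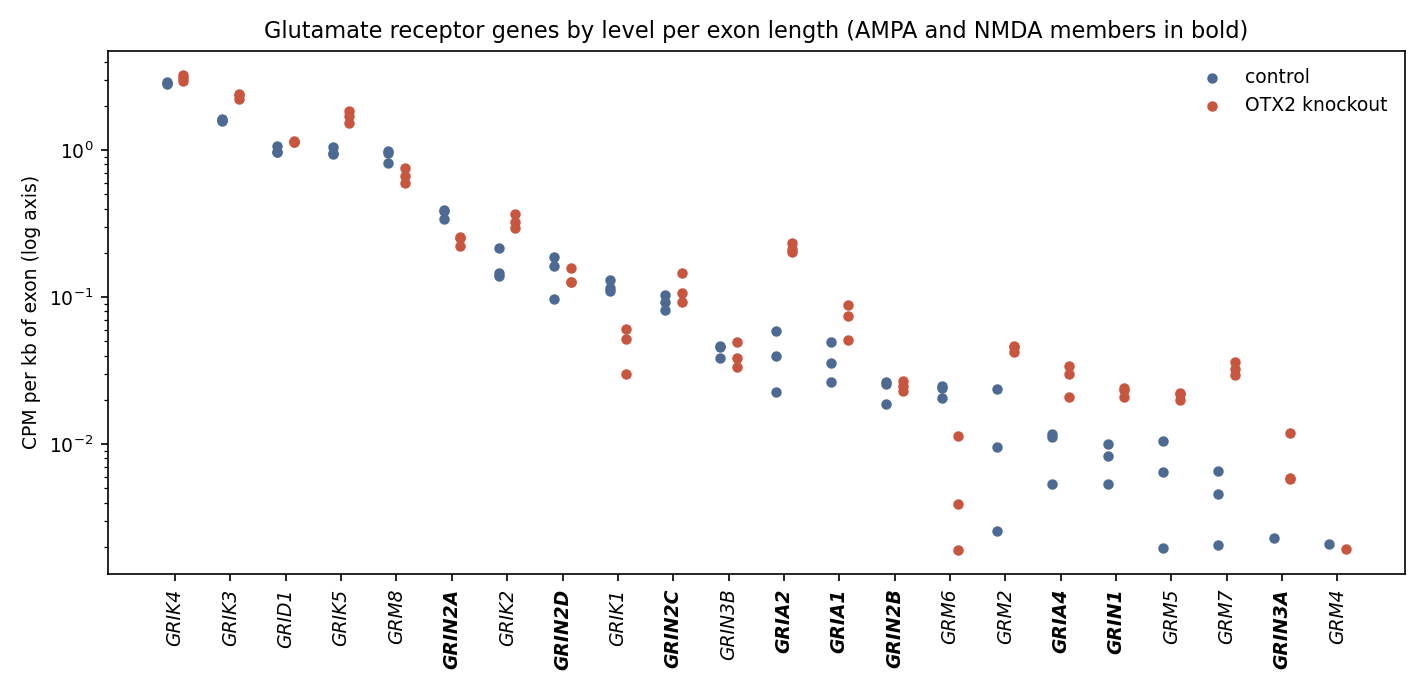
CPM per kb of exon (log axis) of glutamate receptor genes in each control and OTX2 knockout library, ordered by the control mean, with AMPA and NMDA members in bold. Genes with a group mean of 0 and single libraries at 0 are not drawn. GRIK4 and GRIK3 are the highest of the genes drawn, at 2.87 and 1.6 CPM per kb in control, and the members start at 0.372 with GRIN2A.

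Proteins that assemble, traffic or cluster AMPA and kainate receptors included the largest rise among the lists. Of 18 tested auxiliary and assembly genes, 9 rose and 3 fell, and the median log2 fold change was 0.31, with 3 genes that passed the filter only through the knockout libraries, CACNG4 among them. NPTXR and NPTX1, pentraxins that gather AMPA receptors at synapses, rose from 0.253 ± 0.0898 to 27.4 ± 1.83 CPM and from 20.8 ± 0.337 to 92.5 ± 4.84 CPM (SD, 3 libraries each). OLFM1, a secreted protein that associates with AMPA receptors, rose 1.62-fold. CACNG5, an auxiliary subunit of the TARP family, fell, at 39.6 ± 0.401 CPM in the controls and 21.8 ± 0.722 CPM in the knockouts. NETO2, an auxiliary subunit of kainate receptors, stood at 109 ± 3.11 CPM in control libraries against 108 ± 3.79 CPM in knockout libraries. Picked with their values in view, the TARP genes CACNG2 and CACNG4 had log2 fold changes of 0.44 and 2.79, so the tested TARP genes did not move one way.

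Scaffold and trafficking genes moved in both directions. Of 24 tested, 7 rose and 9 fell, and the median log2 fold change was -0.05. Over all tested genes the shares were 21.2% higher and 18.5% lower. AKAP5, which anchors kinases and calcineurin to AMPA and NMDA receptors, fell from 192 ± 6.50 to 66.6 ± 6.27 CPM (SD, 3 libraries each). LIN7A fell 1.41-fold, DLGAP3, with 0 control libraries over the filter, rose 6.33-fold and LRRC7 (densin), a postsynaptic scaffold, rose 1.91-fold. NSF, which binds GRIA2, was at 59.2 ± 3.27 and 58.9 ± 2.43 CPM, and GRIP2 had a log2 fold change of 0.02, with exons that overlap SLC6A6.

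Among 12 tested genes of glutamate supply and clearance, 3 rose and 4 fell, and the median log2 fold change was -0.04. Over all tested genes 21.2% were higher and 18.5% lower. The vesicular transporter SLC17A7 rose 3.13-fold and the uptake transporter SLC1A1 2.03-fold. The glial-type transporter SLC1A3 fell 1.66-fold, and GLUL, the glutamine synthetase, fell from 5931 ± 223 to 4092 ± 301 CPM (SD, 3 libraries each). For the NMDA co-agonists 1 of 7 tested genes rose and 4 fell, with a median of -0.26. The glycine transporter SLC6A9 fell 1.40-fold, the serine synthesis enzyme PHGDH fell 1.33-fold, and the neuronal glycine transporter SLC6A5 rose 2.50-fold.

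Of the 3 deaminase genes, which include ADARB1, the enzyme that edits the GRIA2 pore codon, 2 rose. ADARB1 rose 1.26-fold, from 24.1 ± 1.47 to 30.5 ± 2.26 CPM (SD, 3 libraries each). ADAR rose 1.08-fold at an edgeR adjusted p of 0.0455, a call that was lost with RLE size factors (0.0743), and 1 gene of the list rose when a single control replicate, or knockout replicate 2 or 3, was left out. Editing itself cannot be read from gene counts.

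Of 16 tested kinase and phosphatase genes that act on these receptors, 6 rose and 1 fell, and the median log2 fold change was 0.06. The calcineurin subunit PPP3CA rose 1.75-fold, and the other listed calcineurin subunits did not pass. The Src family kinase FYN rose 1.80-fold, CAMK2B 3.22-fold and PPP1R1B 2.37-fold. The member that fell, named after its values were seen, was CAMK2A, with a log2 fold change of -0.74, and 2 genes fell without control replicate 1. Of 12 tested genes induced by calcium influx and activity, 8 rose and 1 fell, with a median of 0.65. FOS rose 1.85-fold, DUSP1 1.82-fold, ARC 3.24-fold and NR4A2 1.53-fold, and with DESeq2 5 genes of the list rose. The member that fell was HOMER1, also named after its values were seen, with 0 falling genes under library totals alone and 2 without control replicate 2.

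REST, whose element was spelled out in the GRIA2 window, was at 92.6 ± 6.29 CPM in control against 89.7 ± 3.81 CPM in knockout (SD, 3 libraries each). Its log2 fold change was -0.05 with an SE of 0.05, at an edgeR adjusted p of 0.552. Under library totals alone the log2 fold change was 0.03, at an edgeR adjusted p of 0.682. The exons of REST overlap NOA1. Of the 9 tested genes of the REST complex 2 rose and 2 fell, with a median of -0.05. The shares over all tested genes were 21.2% higher and 18.5% lower. RCOR2 rose 1.34-fold, KDM1A rose 1.12-fold, and HDAC2 and EHMT2 fell 1.13-fold and 1.15-fold. With library totals alone 0 genes of the complex fell, and without knockout replicate 2 only 1 rose.

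**Figure D5:**
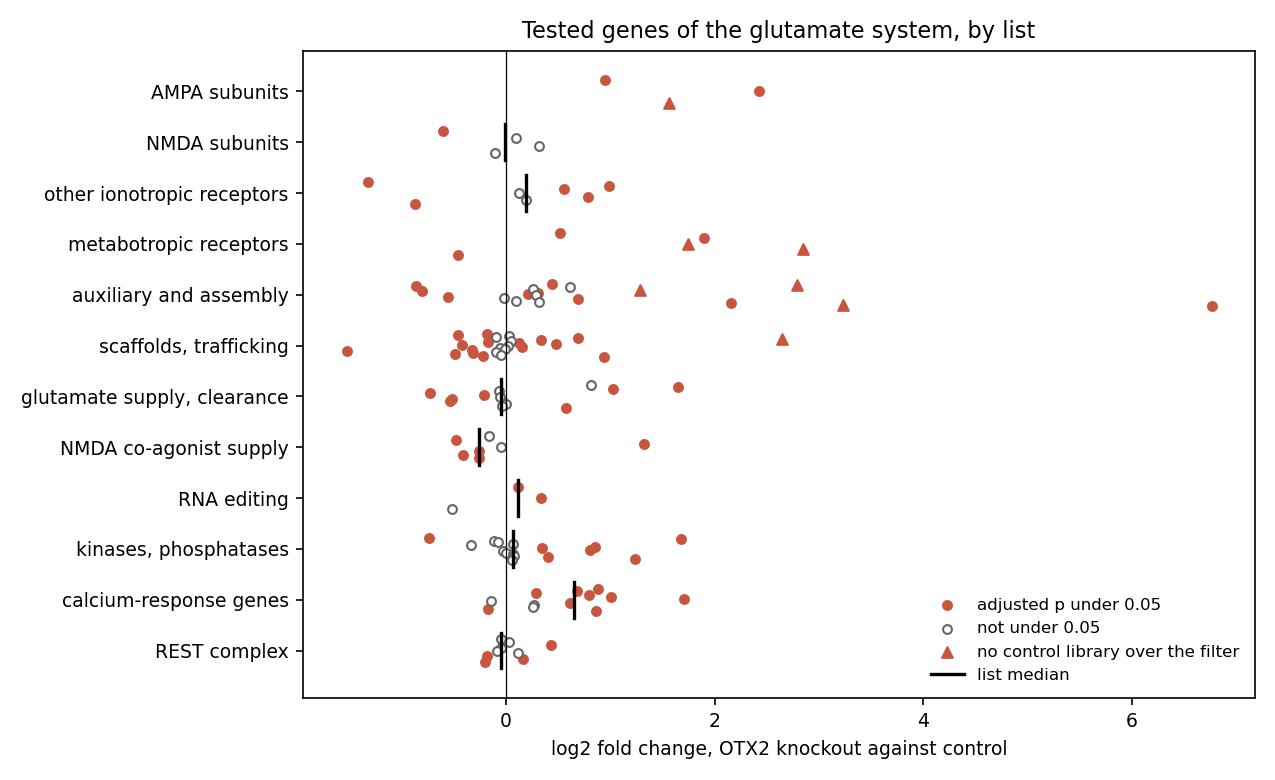
Log2 fold change, OTX2 knockout against control (horizontal axis), of tested genes in the lists of the glutamate system, with 1 row per list. Filled symbols have an edgeR adjusted p under 0.05, triangles are genes with 0 control libraries over the filter on low counts, and bars are medians of the lists without such genes, from -0.26 for co-agonist supply to 0.65 for calcium-response genes.

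The lists of cell type markers did not move one way. All 9 tested markers of Group 3 medulloblastoma, OTX2 included, fell, and 8 or 9 of them with each library left out and under each scaling. Their summed level was 4567 to 4893 CPM in control and 3187 to 3761 CPM in knockout, with a median log2 fold change of -0.59. IMPG2 fell from 701.5 ± 9.70 to 413.5 ± 26.6 CPM (SD, 3 libraries each), and MYC and CRX fell 1.43-fold and 1.13-fold. Of 9 neuronal markers in the table, 6 were tested, 5 rose and 1 fell. Their summed level was 214 to 252 CPM in control and 292 to 321 CPM in knockout, and TUBB3 was listed at 0. TUBB3 shares 1584 exon bases with AC092143.1, also at 0, and how reads in shared exons were counted was not given. The 0 is therefore not read as absence of the transcript. RBFOX3, a marker of mature neurons, had 0 control libraries over the filter and rose from 11 to 252 summed counts, and SNAP25 rose 2.23-fold. The neuronal marker that fell was the most abundant of the 6 tested in both groups. Its level was 170 ± 11.6 CPM in control and 147.5 ± 8.7 CPM in knockout, at an edgeR adjusted p of 0.0109. Of 8 oligodendrocyte lineage markers, 4 were tested, 2 rose and 1 fell. OLIG2 rose 3.47-fold, and the myelin genes MBP and MOG had 0 counts in each control library and at most 1 in a knockout library. Of 6 astrocyte markers 2 were tested and 0 passed, with a sum of 3.18 to 3.47 CPM in control and 2.98 to 3.77 CPM in knockout and GJB6 at 0. The part of these marker changes in the AMPA result was not tested.

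Across the 6 libraries, the genes whose centred log2 CPM lay closest to that of GRIA2 were TMEM255A, FMNL1 and RYR2, out of 12944 compared. Their root mean square distances were 0.195, 0.226 and 0.227 log2 units. TMEM255A went from 1.0 ± 0.173 to 5.53 ± 0.562 CPM, FMNL1 from 3.10 ± 0.397 to 13.1 ± 0.197 CPM and RYR2, a calcium release channel, from 4.83 ± 0.790 to 23.9 ± 1.72 CPM (SD, 3 libraries each). The likeness is mostly that of a similar difference between the groups.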

How the data were processed

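The authors deposited unnormalized counts per gene symbol, 1 column for each of 6 libraries. Per the submitters' processing notes, STAR and hg38 were used. The counting program, the annotation and whether strand was used were not given in the sources used here, so reads of overlapping genes cannot be assigned with certainty. Columns were matched to libraries by title, and 0 rows named no gene.

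Counts were fitted with edgeR 4.0.16 in R 4.3.3 over the whole table: filterByExpr at its defaults (here 0.164 CPM in at least 3 libraries), TMM scaling, the quasi-likelihood F test with 4 residual degrees of freedom, and Benjamini-Hochberg adjustment over 18420 genes. Scripts were tested on simulated data. Alternatives were other scalings and filters, DESeq2 1.42.0, limma-voom (limma 3.58.1), glmTreat, a threshold of 0.01 and leaving out each library.

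Members and gene lists were chosen with earlier results of these data known, the lists from textbook knowledge. Genes were named by rule: the members, GRIN3B, OTX2, MYC and REST, of each list the 4 with the smallest adjusted p and up to 2 with a mean count of at least 100 and the largest adjusted p, and the 3 genes nearest in pattern to the member with the smallest adjusted p. Some genes the rule takes are not reported here, nor drawn by name. Other genes are marked as chosen later, apart from those named only for overlapping exons. GRIK1, GRM5, MBP, MOG, GJB6 and TUBB3 also lie outside the rule and carry no mark where they are named. Group markers of immune, endothelial and fibroblast cells are given with the limits. Exon lengths and overlaps came from GENCODE release 29 and upstream sequence from RefSeq. A count is called uncertain where an overlapping gene holds over 10% of it.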

Additional observations from a re-analysis of the deposited data

How the results depend on the processing

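No paired analysis was possible because the labels give the groups no shared replicate numbers. Against a 1.5-fold change (glmTreat), 1050 genes were higher and 157 lower, 1 member rose (GRIA2) and 0 fell, 16 other glutamate genes rose and 4 fell where 45 and 26 had, and OTX2 did not pass (-0.22). With at least 1 CPM in at least 3 libraries, 1 member was higher, because GRIA1 and GRIA4 were no longer tested. With library totals alone 2034 genes were lower. Leaving out a library gave 3267 to 3861 genes higher and 2630 to 3653 lower, 2 or 3 members higher and 1 lower, 39 to 43 other glutamate genes higher and 26 or 27 lower, and OTX2 at -0.29 to -0.17. The GRIA2 share difference was 18.9 to 29.8 percentage points and the GRIN2A share difference -15.4 to -11.8. With a library left out, the log2 fold change of GRIN2B ran from -0.053 (without control replicate 2) to 0.19, and that of GRIN2D from -0.36 to 0.085 (without control replicate 3), and neither passed in any fit. With the longest transcript as length, the AMPA share rose by 28.8 points where it had been 24.8. GRIA2, GRIA4 and GRIN2A passed under each scaling and each left-out library. GRIA3, GRIN1 and GRIN3A did not pass the filter on low counts. Against a 1.5-fold change 3 of the 9 Group 3 markers and 0 neuronal markers fell. With library totals alone, with a threshold of 0.01 or without knockout replicate 1, 0 neuronal markers fell as well. The checks of these marker lists were added after the data were seen. Of other cell markers, 1 of 2 tested immune and 1 of 5 tested endothelial genes fell. Rises were called for 2 of the 5 endothelial and 3 of 4 tested fibroblast genes. In each of these 2 lists 1 of the risen genes had 0 control libraries over the filter, so its rise was built into its selection. Of all tested genes, 21.2% were higher and 18.5% lower.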
